A study of Mus musculus with 9 samples.

Results

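Of the 9 pools of sorted periosteal cells in the series, 3 carried far more RNA of macrophages and other leukocytes than the rest, and the transcripts that came with that RNA or stood lower beside it are described here. The 3 macrophage-rich pools were those whose C1qb probe exceeded an intensity of 2000 in the deposited quantile-normalised table, and 1 lay in each group. C1qb read 5329 in unfractured replicate 3, 12780 in day 2 fracture replicate 1 and 3620 in day 6 fracture replicate 1, against 150 to 641 in the 6 macrophage-poor pools. The value closest above the limit was thus 3620 and the one closest below it 641, so no pool lay near the limit.

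All mice were αSMACreERT2/Ai9 on a B6;129S6 background. In this cross, tamoxifen activates a Cre driven by the alpha smooth muscle actin promoter, which switches on the red protein tomato in cells that use the promoter at that time and in their descendants. Every mouse received 2 tamoxifen doses of 75 µg/g. The day 2 and day 6 groups had tibial fractures made after the second dose, and tomato-positive cells were sorted from enzyme-digested periosteum at day 2, and from periosteum and soft callus at day 6. The unfractured group had no fracture, and its periosteum was taken 2 days after the last dose. The macrophage-rich pools held 9 unfractured mice of 4.5 to 5.5 months, 8 day 2 mice of 2 to 5 months and 4 day 6 mice of 4 months, all male. The macrophage-poor pools held 9 male and 8 female unfractured mice, 8 male and 7 female day 2 mice, and 8 male and 4 female day 6 mice, with ages from 3 to 5.5 months, and each pool was hybridised to 1 array. Each group therefore held 1 macrophage-rich male pool, 1 macrophage-poor male pool and 1 macrophage-poor female pool, and each pool is a mixture of animals in which single mice cannot be seen.

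Macrophages are phagocytes of the leukocyte lineage that live in tissues or arise from blood monocytes. Bone carries resident macrophages on its surfaces, and fractures recruit neutrophils first and then monocytes and macrophages, which clear debris and secrete chemokines. C1q, the recognition unit of the classical complement pathway, is made mainly by macrophages, Lyz2 encodes the lysozyme of myeloid cells, and Adgre1 encodes the surface protein F4/80. The alpha smooth muscle actin reporter is meant to label mesenchymal progenitors, pericytes and smooth muscle cells. In RNA from such pools, fewer cells of a type and less RNA per cell cannot be told apart.

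Between 40.4% and 55.2% of probes were detected per array. The 75th percentile of raw intensity was 351 and 333 in the macrophage-rich day 2 and day 6 pools, against 647 to 892 in the macrophage-poor pools of those groups, and 434 in the macrophage-rich unfractured pool, against 302 and 350 in its group. This brightness moved with the class of pool in the fracture groups, and its part in the results was not tested. All levels below are log2 normalised intensities in the order unfractured, day 2, day 6, and each difference is macrophage-rich minus macrophage-poor with group in the model, on the log2 scale, ± its standard error over 3 and 6 pools. Since the pools were chosen by a transcript on the same arrays, these differences are descriptions and carry no p-value.

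A gene was called higher or lower when its difference was at least 1 in size and the macrophage-rich pool lay outside both other pools of its own group in all 3 groups. Where a macrophage-rich pool was left out (unfractured replicate 3, day 2 replicate 1 or day 6 replicate 1), only the other groups defined a call, which is a laxer rule. Of 10073 genes, 562 (5.58%) were called higher and 607 (6.03%) lower, and the median difference over all genes was -0.07. The distribution was lopsided at its far ends. A difference of at least 3 was seen in 86 genes called higher, whereas the lowest difference of all was -3.51, for the sodium channel subunit Scn4b. H4c3 at 1.001 and Serpinb6c at -1.001 lay just inside the limits, and Igfbp3 at 0.9975 and Syt11 at -0.9995 just outside. Among genes called higher, 42 were undetected in all 6 macrophage-poor pools, and among those called lower, 83 were undetected in all 3 macrophage-rich pools. With median scaling between arrays in place of quantile normalisation, 396 genes were called higher and 693 lower, and the median of all genes was -0.35.

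**Figure D1:**
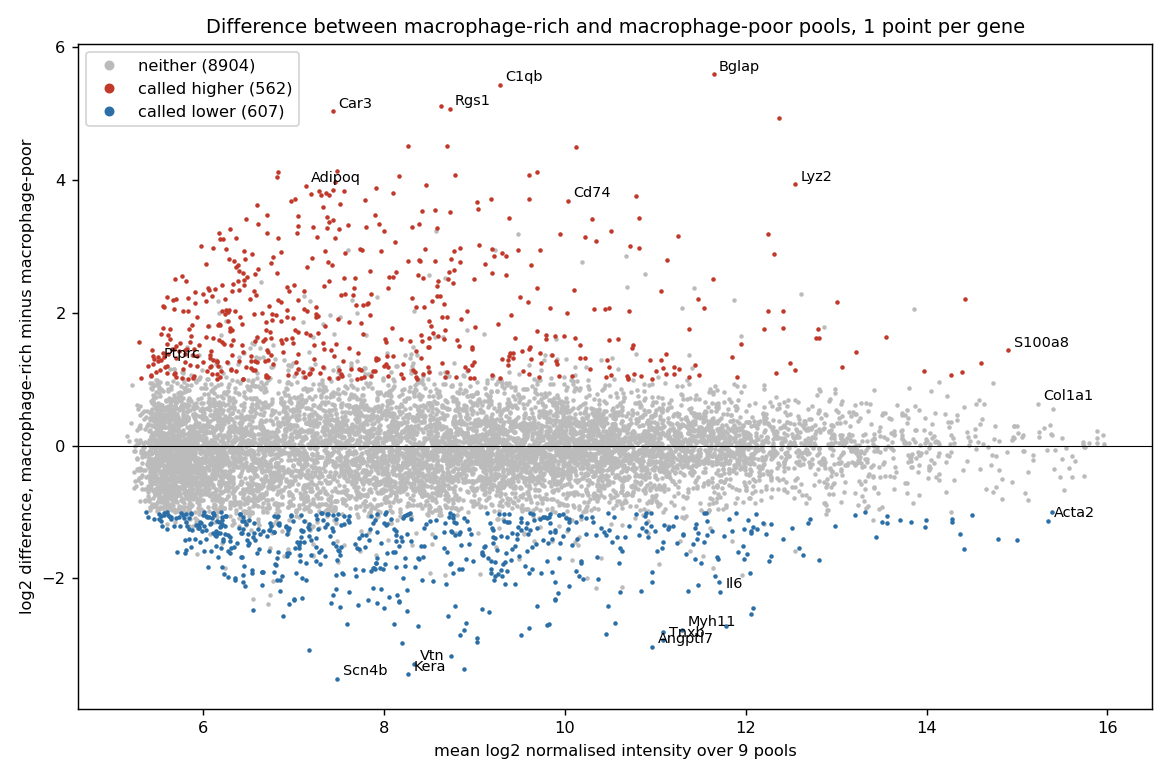
Each point is 1 of 10073 genes, with the mean log2 intensity over 9 pools on the x axis and the log2 difference, macrophage-rich minus macrophage-poor, on the y axis. The 562 genes called higher (red) reach 5.59, while the 607 called lower (blue) reach -3.51.

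The macrophage identity of the pools extended well beyond the gene that chose them. Of 26 measured macrophage markers, 23 were called higher, none lower, and the median difference of the list was 3.60. Of these 23, C1qb itself set the rule, and 3 were undetected in all 6 macrophage-poor pools, so the detection filter fixed their direction. C1qb had levels of 12.67, 13.96 and 12.09 in the macrophage-rich pools, against 4.78 and 5.54, 8.12 and 9.25, and 8.21 and 8.98 in the macrophage-poor pools, a difference of 5.43 ± 0.66 that the rule itself fixed. Its partner chain C1qc had 11.12, 13.18 and 11.83 in the macrophage-rich pools, against 5.43 and 5.84, 6.95 and 7.90, and 7.44 and 7.99, a difference of 5.12 ± 0.36. The third chain, C1qa, differed by 3.97 ± 0.34. For all 3 chains every macrophage-rich pool lay above every macrophage-poor pool.

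The other markers named for these pools stood high as well. Adgre1 had 11.60, 12.34 and 10.55 in the macrophage-rich pools, against 5.04 and 6.31, 8.57 and 8.85, and 7.68 and 8.13 in the macrophage-poor pools, a difference of 4.07 ± 0.56. Lyz2 was bright in every pool, with 15.19, 15.75 and 14.57 in the macrophage-rich pools, against 11.94 and 10.13, 10.60 and 11.59, and 11.35 and 11.83 in the macrophage-poor pools. Its difference of 3.93 ± 0.47 is 15.3-fold on this scale. The macrophage-poor pools thus held myeloid RNA too. Other detected probes differed by 1.35 and 4.15 for Adgre1 and by 1.87 and 3.69 for Lyz2. The phagocytic receptors and surface proteins Trem2 (3.92 ± 0.52), Mrc1 (3.71 ± 0.58), Clec4n (3.84 ± 0.47) and Folr2 (2.76 ± 0.46), and the chemokine receptor Cx3cr1 (3.84 ± 0.53), were called higher.

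Some defining leukocyte probes were dim. Itgam, the integrin chain CD11b, was undetected in all 6 macrophage-poor pools and had 7.01, 8.66 and 5.61 in the macrophage-rich pools, at least 2.39-fold higher. Ptprc, which encodes the pan-leukocyte protein CD45, had 6.49, 6.79 and 5.77 in the macrophage-rich pools and was undetected in the others, at least 1.43-fold higher. Both genes passed the detection filter only through the macrophage-rich pools, so that they read higher there was fixed by the filter. Vsig4 (1.15 ± 0.39), Mertk (0.66 ± 0.41) and Timd4 (-0.07 ± 0.26), genes of resident macrophages, were not called. Timd4 was undetected in all 3 macrophage-rich pools. Csf1r and Cd68 had no probe among those that passed the detection filter.

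The promoters of genes with high differences are shown because many of these genes are known from myeloid cells, in which the transcription factor PU.1 is a main regulator. Spi1, the gene of PU.1, had 6.42, 8.89 and 7.26 in the macrophage-rich pools and was undetected in the macrophage-poor pools, at least 3.22-fold higher, and it too passed the filter only through the macrophage-rich pools. The motif GAGGAAG, a core that PU.1 binds, was searched on both strands of the 250 bases before each annotated start (RefSeq, GRCm38.p6). It occurred in 17.5% of 554 promoters of genes called higher and in 10.7% of 608 promoters of genes called lower, beside 10.6% of all 32851 promoters in the table. Promoters were matched for 443 of the 562 genes called higher and 451 of the 607 called lower. The promoter of C1qb and those of 5 genes of high difference that hold the motif follow, 5′ to 3′ on the strand of the gene, with the motif or its reverse complement in capitals. The 5 have the highest differences among matched genes called higher that hold the motif, with a single chromosome left out of the choice.
C1qb (chr4:136886201-136886450, minus strand): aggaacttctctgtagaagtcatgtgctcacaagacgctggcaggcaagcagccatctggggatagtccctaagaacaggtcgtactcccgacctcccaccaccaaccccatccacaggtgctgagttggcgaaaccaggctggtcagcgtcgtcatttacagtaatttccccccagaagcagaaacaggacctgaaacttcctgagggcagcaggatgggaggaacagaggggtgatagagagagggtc
C1qc (chr4:136892915-136893164, minus strand): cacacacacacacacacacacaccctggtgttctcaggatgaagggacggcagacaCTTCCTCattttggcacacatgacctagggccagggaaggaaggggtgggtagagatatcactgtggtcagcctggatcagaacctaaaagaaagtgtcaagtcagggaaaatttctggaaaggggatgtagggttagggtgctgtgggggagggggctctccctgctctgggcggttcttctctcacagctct
Wfdc17 (chr11:83703806-83704055, plus strand): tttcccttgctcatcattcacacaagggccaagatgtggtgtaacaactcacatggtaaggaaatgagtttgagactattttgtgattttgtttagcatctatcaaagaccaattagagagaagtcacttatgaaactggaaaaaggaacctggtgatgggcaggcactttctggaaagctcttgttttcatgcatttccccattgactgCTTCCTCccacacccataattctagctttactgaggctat
Pf4 (chr5:90772185-90772434, plus strand): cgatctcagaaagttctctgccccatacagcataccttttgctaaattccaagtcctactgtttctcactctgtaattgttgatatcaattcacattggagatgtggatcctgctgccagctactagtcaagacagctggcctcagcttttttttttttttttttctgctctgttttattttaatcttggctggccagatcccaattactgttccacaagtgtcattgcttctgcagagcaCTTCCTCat
Stfa1 (chr16:36276898-36277147, plus strand): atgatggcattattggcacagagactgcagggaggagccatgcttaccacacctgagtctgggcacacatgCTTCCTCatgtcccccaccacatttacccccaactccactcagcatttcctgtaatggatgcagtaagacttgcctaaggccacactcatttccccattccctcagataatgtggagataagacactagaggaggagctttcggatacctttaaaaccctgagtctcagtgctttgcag
Trem2 (chr17:48346151-48346400, plus strand): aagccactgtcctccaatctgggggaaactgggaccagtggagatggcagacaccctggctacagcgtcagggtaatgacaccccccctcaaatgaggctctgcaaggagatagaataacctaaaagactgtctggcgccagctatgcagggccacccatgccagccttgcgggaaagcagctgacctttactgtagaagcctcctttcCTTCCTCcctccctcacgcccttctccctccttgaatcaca
C1qb has no match in these letters. In the other 5 the motif reads as its reverse complement and starts between 9 and 194 bases before the gene's start, nearest in Pf4 and farthest in C1qc.

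Signalling and effector genes of myeloid cells were called higher to differing extents. Among 15 genes of Fc receptor and ITAM signalling, the route by which antibody-coated particles trigger phagocytes, 14 were called higher, with a median of 3.06. The adaptors Fcer1g and Tyrobp, which pass the signal on, differed by 3.76 ± 0.45 and 3.66 ± 0.67, and the inhibitory receptor Fcgr2b by 3.51 ± 0.38. Of 4 genes of the NADPH oxidase, which makes the oxidative burst, 3 were called higher, with Ncf1 and Ncf4 both at 3.01. Of 22 pan-leukocyte genes 18 were called higher, with a median of 2.89, led by the actin bundling protein Lcp1 at 3.77 ± 0.33. Of the 18, 3 were undetected in all macrophage-poor pools, so the filter fixed their direction. Of 10 myeloid transcription factor genes 4 were called higher, 1 of them undetected in all macrophage-poor pools, and of 6 chemoattractant receptor genes 4.

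Sensors and secreted signals divided. Of 12 Toll-like receptor and inflammasome genes, 8 were called higher (4 in the deposited table or with no background correction). They were led by the RNA sensors Tlr13 (3.78 ± 0.39, its other detected probe 1.28) and Tlr7 (3.13 ± 0.33). Irak3, an inhibitor of the pathway, was called lower (-1.11 ± 0.18). No gene of the list was called lower in the deposited table, with no background correction or without unfractured replicate 3, and 2 were with median scaling. Tlr4, the receptor for bacterial lipopolysaccharide, differed by 0.28 ± 0.22 and was not called. Of 22 cytokines and chemokines, 12 were called higher and 2 lower. Ccl3, a chemokine of activated macrophages, had 10.92, 12.43 and 11.64 in the macrophage-rich pools, against 7.58 and 7.70, 8.47 and 8.89, and 8.42 and 8.41 in the macrophage-poor pools, a difference of 3.42 ± 0.19. The 3 groups gave nearly the same difference for Ccl3. Tnf (2.54 ± 0.34), Osm (2.94 ± 0.35) and Il1rn (2.62 ± 0.48) were called higher as well.

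The 2 secreted factors called lower were Il6 and the neutrophil attractant Cxcl1. Il6 had 11.49, 8.69 and 10.57 in the macrophage-rich pools, against 13.87 and 14.06, 13.29 and 11.76, and 10.94 and 10.79 in the macrophage-poor pools, a difference of -2.20 ± 0.60 that was small at day 6. Cxcl1 was close to the top of the scale in every pool and differed by -1.43 ± 0.20. The monocyte attractants Ccl2 (-0.34 ± 0.51) and Ccl7 (-0.87 ± 0.52) were not called.

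All 19 measured neutrophil genes were above both other pools of the group in the macrophage-rich pools of both fracture groups, and 8 of the 19 were in the unfractured group. The mean level of 19 neutrophil genes was 11.40, 13.42 and 11.35 in the macrophage-rich pools, against 11.48 and 9.56, 9.18 and 9.34, and 8.94 and 9.31 in the macrophage-poor pools. Unfractured replicate 1, a macrophage-poor pool, thus equalled the macrophage-rich pool of its group. With all pools 8 of the 19 genes were called higher, without that replicate 18, without unfractured replicate 3, 19, and with median scaling 15. S100a8, a calcium-binding protein that neutrophils hold in bulk, had 15.90, 16.09 and 15.59 in the macrophage-rich pools, against 15.75 and 14.35, 14.19 and 14.36, and 13.74 and 14.16 in the macrophage-poor pools. Elane, a protease of immature granules, was not called at 3.23 ± 0.95, since it read 8.80 in the macrophage-rich unfractured pool and 9.63 in unfractured replicate 1. It was highest in the macrophage-rich day 2 pool, at 13.41.

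That day 2 pool led the class in most respects, holding the highest level of the 3 macrophage-rich pools for 376 of the 562 genes called higher. Genes of class II antigen presentation were brightest in the macrophage-rich day 6 pool. H2-Ab1, a chain of the class II molecule, had 11.27, 12.86 and 13.84 in the macrophage-rich pools, against 8.15 and 10.08, 8.16 and 9.49, and 10.03 and 10.69 in the macrophage-poor pools, a difference of 3.23 ± 0.53. Cd74, the chaperone of class II molecules, differed by 3.69 ± 0.55. Of 9 genes of the dendritic cell and class II list, 6 were called higher, and the dendritic cell factors Batf3 (0.03 ± 0.24) and Zbtb46 (-0.03 ± 0.33) were not. 

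Few genes of other blood lineages passed the detection filter. None of 4 T and NK cell genes and none of 4 erythroid genes was called, beside 5.58% of all genes called higher, and without unfractured replicate 3, 2 of the erythroid genes and 1 of the T and NK cell genes were called higher. Without unfractured replicate 1 the counts were 1 and 1. Haemoglobin Hba-a1 read 13.87, 13.47 and 14.81 in the macrophage-rich pools, against 15.20 and 12.76, 12.73 and 11.81, and 10.59 and 10.54 in the macrophage-poor pools. Only 2 B cell genes passed the filter. With no detection filter 10 B cell, 14 T and NK cell and 8 erythroid genes had a value. Of these, 0, 1 and 0 were called higher. With the filter, the adaptor Blnk, which macrophages also use, was called higher, and Ms4a1, the gene of CD20, read -0.18 ± 0.40. Blnk was undetected in all macrophage-poor pools and passed the filter only through the macrophage-rich pools, so its direction was fixed by the filter. Of 6 platelet genes Pf4 and Ppbp were called higher, while the platelet integrin Itga2b read -0.79 ± 0.39.

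**Figure D2:**
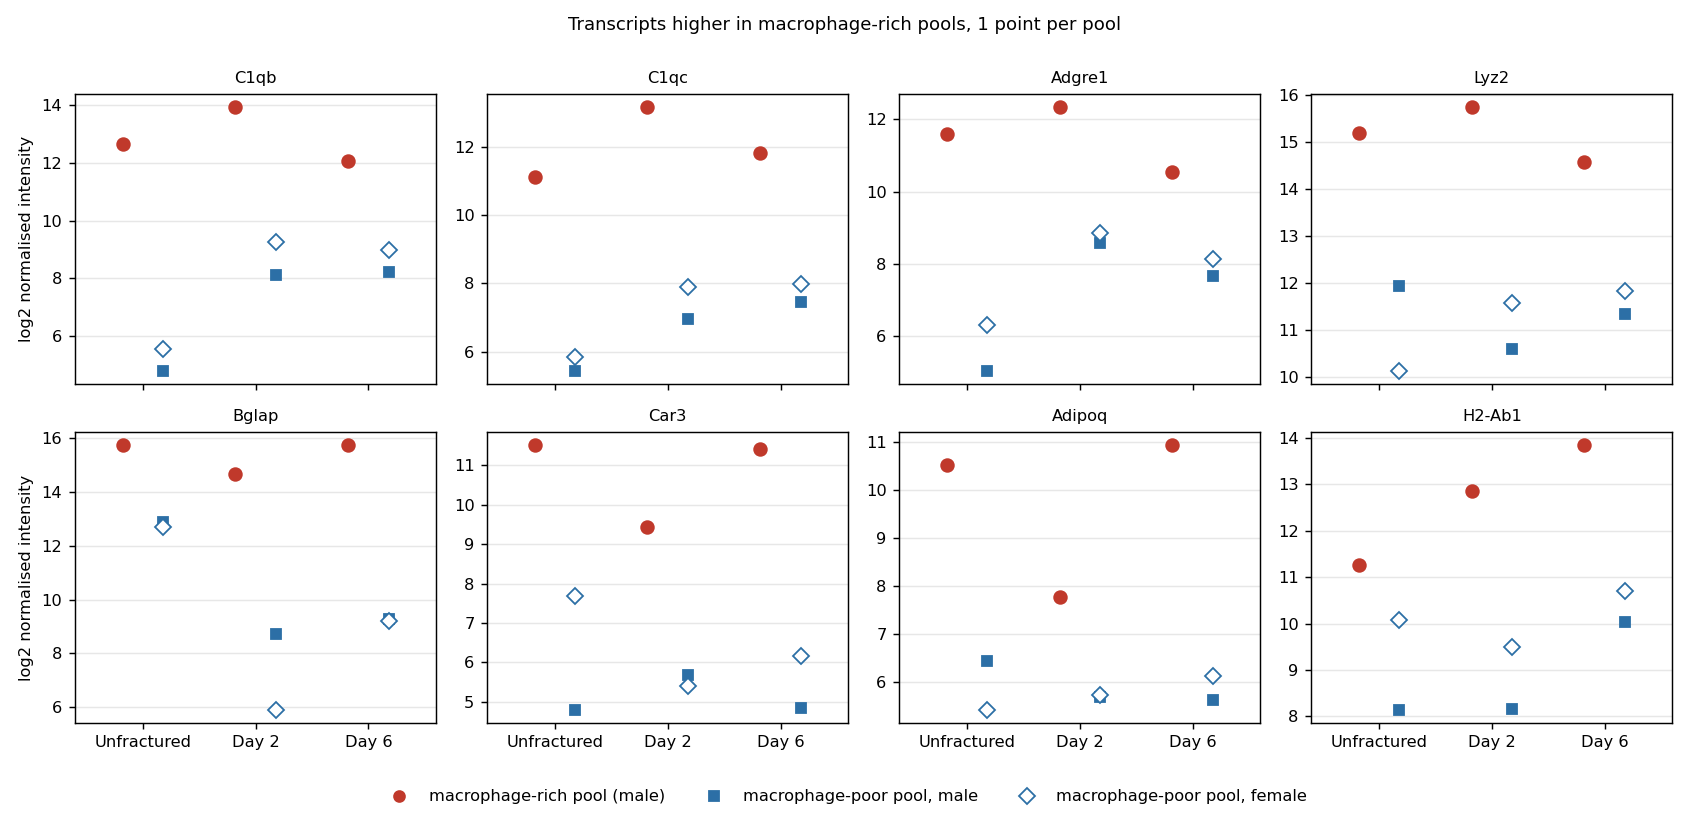
Log2 normalised intensity (y axis) of 8 transcripts in each of 9 pools, grouped by time, with macrophage-rich pools as red circles left of the macrophage-poor pools of the same group (blue, filled squares male, open diamonds female). In each group the red circle lies above both blue points for each of the 8, by least for H2-Ab1 in the unfractured group.

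The transcript with the highest difference of all was not of leukocytes. Bglap, the gene of osteocalcin, a bone matrix protein secreted by mature osteoblasts, had 15.73, 14.66 and 15.72 in the macrophage-rich pools, against 12.87 and 12.70, 8.71 and 5.92, and 9.29 and 9.20 in the macrophage-poor pools. Its difference of 5.59 ± 0.84 is 48.1-fold. Bglap2 differed by 4.92 ± 0.88, but it is a nearly identical copy whose probe may read both genes. Every macrophage-rich pool lay above every macrophage-poor pool, and the macrophage-poor pools were lower after fracture than without it.

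Of 10 measured osteoblast genes, 4 were called higher and none lower, with a median of 1.26 (7 higher without day 6 replicate 1). Ibsp, the gene of bone sialoprotein, had 14.12, 13.93 and 15.28 in the macrophage-rich pools, against 12.11 and 9.80, 12.53 and 9.94, and 14.93 and 14.40 in the macrophage-poor pools. Ifitm5 (2.59 ± 0.42), which is confined to bone-forming cells, and Phex (2.19 ± 0.31), a regulator of phosphate and mineralisation, were the others called. The osteoblast transcription factor Sp7 (1.15 ± 0.53) and the early marker Alpl (0.50 ± 0.40) were not. Col1a1, the main collagen of bone, differed by 0.63 ± 0.17, and of 24 collagen and matrix genes only P4ha3 was called higher, beside 5.58% of all genes. Gdpd2, a membrane phosphodiesterase known from osteoblasts, differed by 4.04 ± 0.42, and its other detected probe by 2.06.

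Osteoclast genes gave little. Of 10 measured, Tnfrsf11a, the receptor RANK (1.74 ± 0.40), and Tcirg1, a subunit of the proton pump (1.64 ± 0.30), were called higher, while the bone-degrading protease Ctsk read -0.07 ± 0.21. Macrophages also use Tnfrsf11a and Tcirg1.

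A pair of adipose genes stood out. Adipoq, the adipocyte hormone adiponectin, had 10.52, 7.77 and 10.93 in the macrophage-rich pools, against 6.43 and 5.42, 5.69 and 5.73, and 5.61 and 6.11 in the macrophage-poor pools, a difference of 3.91 ± 0.53. Car3, a carbonic anhydrase abundant in fat and muscle, had 11.51, 9.45 and 11.42 in the macrophage-rich pools, against 4.80 and 7.68, 5.69 and 5.41, and 4.85 and 6.15, a difference of 5.03 ± 0.65. Unlike the leukocyte genes, both were lowest in the macrophage-rich day 2 pool. Other adipocyte genes did not follow them. Of 8 measured, only Adipoq was called higher, beside 5.58% of all genes. The lipid droplet protein Plin4 was called lower at -2.18 ± 0.53, and the master regulator Pparg read 0.30 ± 0.22.

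Cell cycle genes differed mostly within the unfractured group. Of 17 measured, 7 were called higher, with a median of 0.98, but the median was 2.16 in the unfractured group, 0.49 at day 2 and 0.18 at day 6. Cdk1, the kinase that drives mitosis, had 11.24, 11.44 and 10.58 in the macrophage-rich pools, against 5.71 and 9.13, 10.32 and 10.69, and 10.41 and 10.39 in the macrophage-poor pools. Only 2 of these genes were called without unfractured replicate 1, 2 without unfractured replicate 3, 4 in the deposited table or with no background correction, and 1 with median scaling, while 11 were called without day 6 replicate 1.

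**Figure D3:**
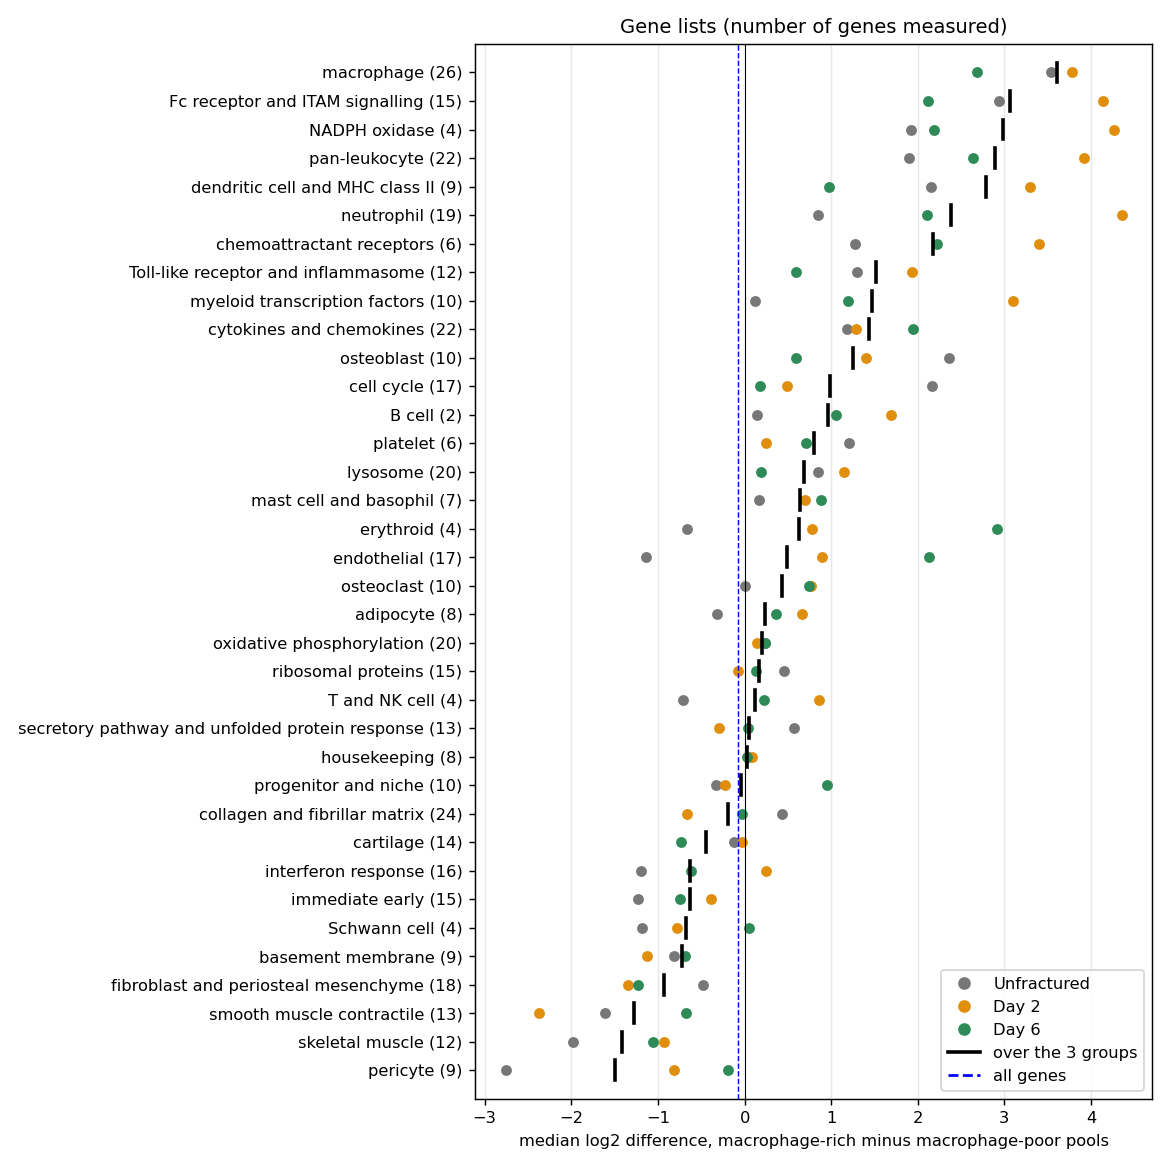
Median log2 difference, macrophage-rich minus macrophage-poor (x axis), of each gene list (rows, number of measured genes in brackets). Points give the median within the unfractured (grey), day 2 (orange) and day 6 (green) groups, the black bar the median over the 3 groups, and the dashed line the median of all genes at -0.07. The macrophage list tops the order at 3.60 and the pericyte list closes it at -1.50.

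Of the 607 genes called lower, 47 belonged to any of the gene lists. Of 13 measured smooth muscle genes 7 were called lower and none higher, with a median of -1.28 (11 without day 6 replicate 1). Myh11, the myosin heavy chain of smooth muscle, had 11.00, 8.52 and 8.82 in the macrophage-rich pools, against 14.64 and 14.07, 12.92 and 12.46, and 9.78 and 9.44 in the macrophage-poor pools, a difference of -2.77 ± 0.55. Des, the muscle intermediate filament desmin, had 8.82, 8.28 and 7.00 in the macrophage-rich pools, against 12.14 and 12.00, 11.07 and 10.88, and 9.28 and 8.96, a difference of -2.69 ± 0.23. For both genes the macrophage-rich unfractured pool read below the macrophage-poor day 2 pools.

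Myocd, the co-activator that turns on the smooth muscle programme, differed by -2.84 ± 0.56, Tagln by -2.45 ± 0.61 and Actg2 by -2.41 ± 0.56. The other detected probe of Myocd differed by -0.74, short of the limit for a call. Acta2, the actin whose promoter drives the reporter, had 15.57, 14.11 and 14.09 in the macrophage-rich pools, against 16.07 and 16.09, 15.75 and 15.93, and 15.27 and 15.22 in the macrophage-poor pools. Its difference of -1.13 ± 0.23 was small beside those of Myh11 and Des. Acta2 was bright in every pool, and its other detected probes differed by -1.81, -1.06 and -0.78.

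Pericytes, the contractile cells that wrap capillaries, gave a median of -1.50 over 9 genes, of which 2 were called lower. The count was 6 without day 6 replicate 1, 5 with median scaling, and 1 without unfractured replicate 3, in the deposited table or with no background correction. Vtn, the adhesion protein vitronectin, had 5.27, 7.13 and 6.04 in the macrophage-rich pools, against 11.00 and 11.06, 8.80 and 8.14, and 9.00 and 8.59 in the macrophage-poor pools, a difference of -3.28 ± 0.68. The list was uneven over time, with medians of -2.76 in the unfractured group, -0.82 at day 2 and -0.20 at day 6. Rgs5 (-1.59 ± 0.55) and Notch3 (-1.67 ± 0.52), which mark pericytes, were not called.

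Of 18 fibroblast and periosteal mesenchyme genes, 8 were called lower and none higher, with a median of -0.93, and 4 were called lower with median scaling. Of the 8, Aspn was undetected in all macrophage-rich pools, so its direction was fixed by the filter. The surface protein Thy1 had 11.34, 11.75 and 11.59 in the macrophage-rich pools, against 12.60 and 13.26, 13.36 and 13.53, and 12.90 and 12.98 in the macrophage-poor pools, a difference of -1.54 ± 0.20. Osr2, a transcription factor of connective tissue (-2.30 ± 0.46), Mfap5, a microfibril protein (-2.05 ± 0.35), and Dpt, the matrix protein dermatopontin (-1.96 ± 0.41), were called lower. Broader mesenchymal genes were not called, among them Prrx1 (-0.45 ± 0.24), Pdgfrb (-0.10 ± 0.27) and decorin, Dcn (-0.15 ± 0.16).

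The 15 genes of lowest difference held several of the matrix. Kera, a keratan sulphate proteoglycan, had 5.82, 5.69 and 6.41 in the macrophage-rich pools, against 9.94 and 10.28, 9.07 and 7.54, and 9.93 and 9.75 in the macrophage-poor pools, a difference of -3.44 ± 0.40. Tnxb, the matrix protein tenascin X, had 11.04, 9.04 and 7.33 in the macrophage-rich pools, against 12.36 and 12.74, 11.26 and 11.95, and 11.90 and 12.20, a difference of -2.93 ± 0.51. The gap for Tnxb was widest at day 6. Angptl7 (-3.02 ± 0.57), Clec3b (-3.16 ± 0.48), the neurotrophin Bdnf (-2.97 ± 0.27), the eosinophil attractant Ccl11 (-2.80 ± 0.30) and the neuropeptide receptor Npy1r (-2.89 ± 0.31) were also among the 15. Tesc was undetected in all 3 macrophage-rich pools, at least 5.77-fold lower. It passed the filter only through the macrophage-poor pools, so its direction was fixed by the filter. Elastin, Eln, was called lower at -2.21 ± 0.41 within the matrix list, as was the microfibril gene Mfap4 at -2.11 ± 0.25.

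Skeletal muscle transcripts were lower too. Of 12 measured, 9 were called lower, with a median of -1.42. Atp2a1, the calcium pump of fast muscle fibres, had 8.35, 9.51 and 6.01 in the macrophage-rich pools, against 8.81 and 12.01, 11.63 and 11.36, and 8.58 and 7.84 in the macrophage-poor pools, a difference of -2.08 ± 0.60. The unfractured pools did not separate clearly, since the macrophage-poor male pool at 8.81 lay close to the macrophage-rich one. The count was 3 with replicate number as a block and in the deposited table, 4 with no background correction and 5 with median scaling.

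**Figure D4:**
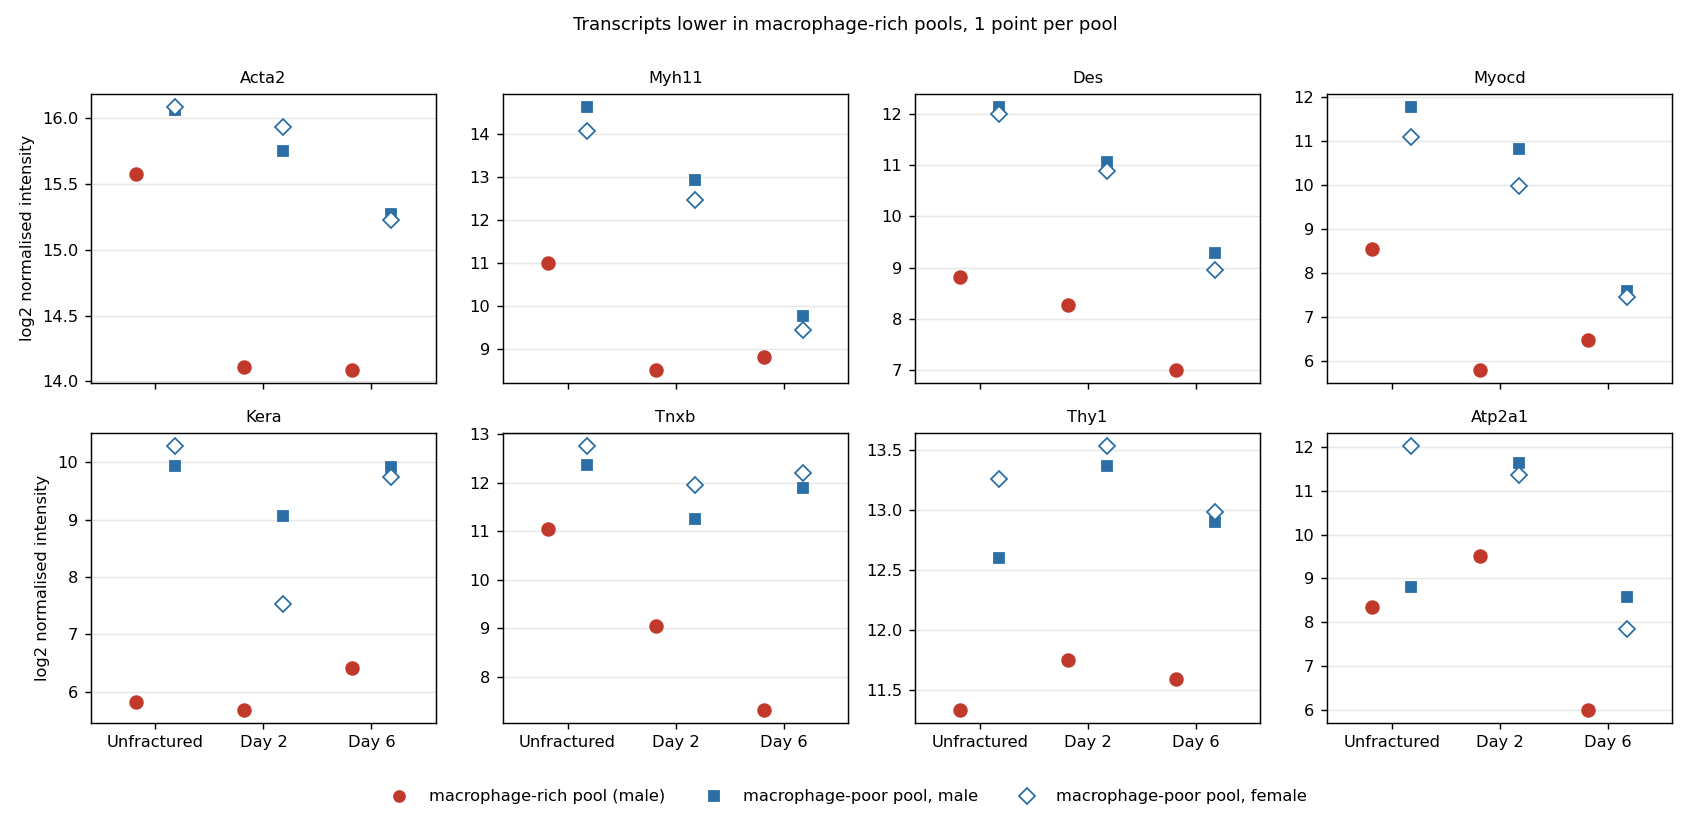
Log2 normalised intensity (y axis) of 8 transcripts in each of 9 pools, with macrophage-rich pools as red circles left of the macrophage-poor pools of the same group (blue, filled squares male, open diamonds female). The red circle lies below both blue points in each group, with the smallest gap for Atp2a1 in the unfractured group and a narrow range for Acta2, which stays above 14 in all pools.

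Stress and interferon genes were partly lower. Of 15 immediate early genes, which cells switch on within minutes of handling or growth stimulus, 6 were called lower and none higher, with a median of -0.63. Egr2 had 11.31, 9.97 and 9.70 in the macrophage-rich pools, against 12.16 and 11.73, 12.05 and 11.72, and 12.41 and 12.53 in the macrophage-poor pools, a difference of -1.77 ± 0.36. Fos (-0.35 ± 0.19), near the top of the scale, was not called. Of 16 interferon response genes, Mx2 (-1.92 ± 0.31), Isg15 (-1.60 ± 0.41) and Ifit2 (-1.07 ± 0.33, its other detected probe -0.62) were called lower and none higher. The count was 8 without day 2 replicate 1 and 1 in the deposited table or with no background correction, and without unfractured replicate 3 it was 2 lower and 1 higher. The interferon list was uneven over time, with medians of -1.20 in the unfractured group, 0.24 at day 2 and -0.62 at day 6.

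Endothelial transcripts followed neither class. None of 17 was called, beside 5.58% of all genes called higher and 6.03% lower. The mean of the list was 9.89, 9.50 and 10.08 in the macrophage-rich pools, against 11.32 and 10.91, 9.27 and 8.29, and 8.03 and 8.64 in the macrophage-poor pools. Pecam1, the endothelial adhesion protein that leukocytes also carry, had 10.48, 10.55 and 11.31 in the macrophage-rich pools, against 11.96 and 11.74, 9.25 and 7.98, and 7.67 and 8.25. By the list mean, the macrophage-rich pool stood below both others in the unfractured group and above both in each fracture group. Without unfractured replicate 3, 11 of the 17 were called higher, but there only the fracture groups defined a call.

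**Figure D5:**
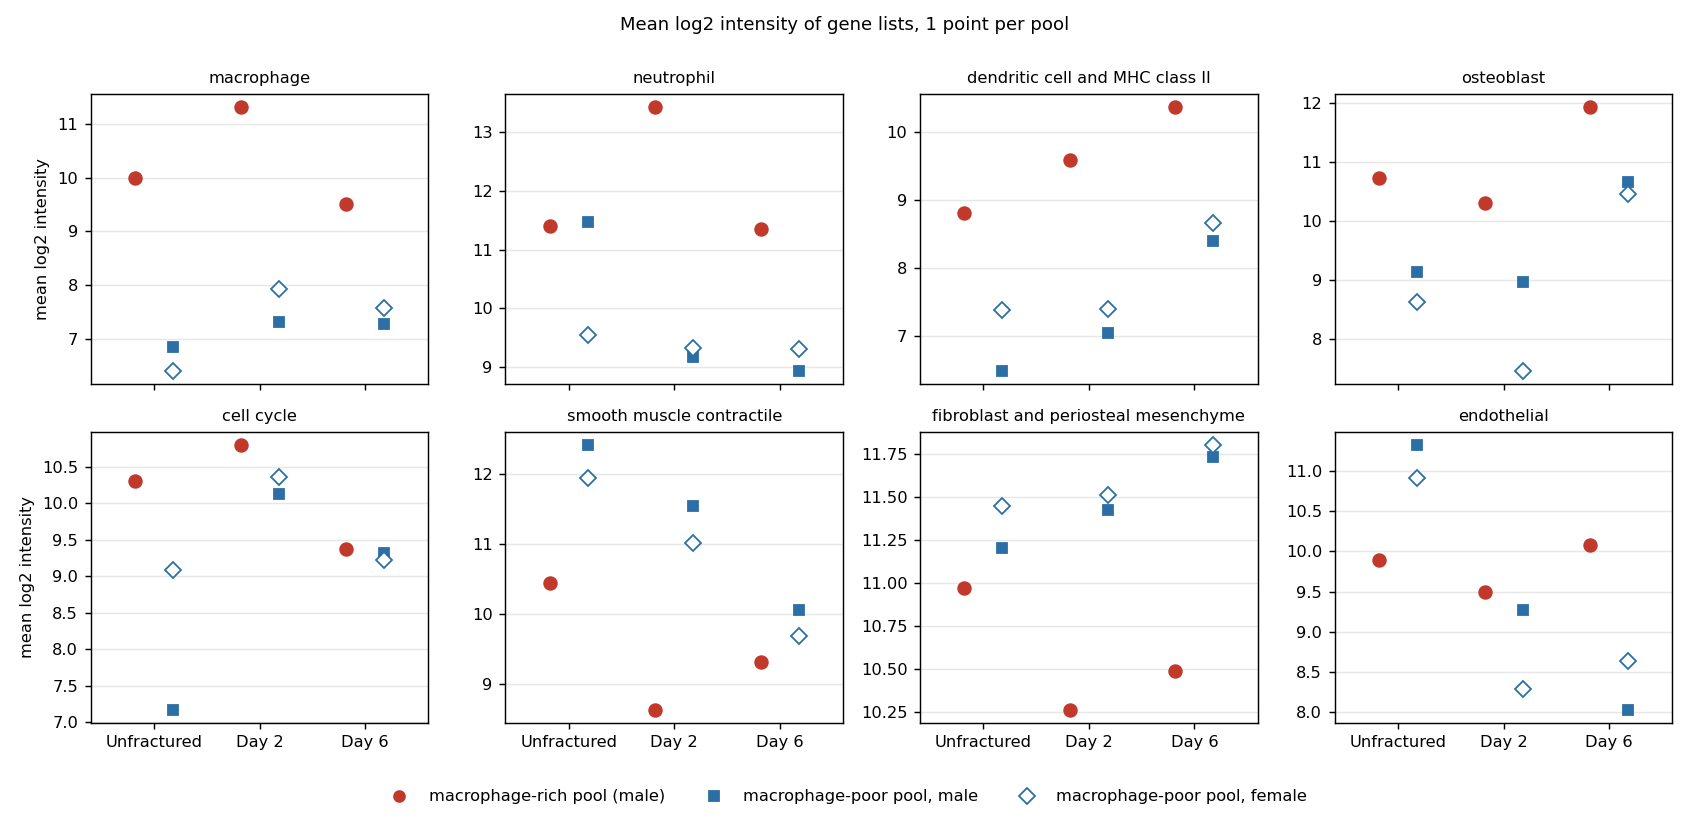
Mean log2 intensity of the measured genes of 8 lists (y axis) in each of 9 pools, drawn with the same symbols by group. Macrophage, class II and osteoblast means are higher in the macrophage-rich pools of all 3 groups, smooth muscle and fibroblast means are lower, the neutrophil mean of unfractured replicate 1 (11.48) matches that of the macrophage-rich pool (11.40), and the endothelial mean lies below the others in the unfractured group and above them after fracture.

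Cartilage genes gave 1 call higher and 3 lower among 14, beside 5.58% of all genes called higher and 6.03% lower. Acan, the gene of the cartilage proteoglycan aggrecan, had 5.14, 9.59 and 14.84 in the macrophage-rich pools, against 4.86 and 5.70, 9.28 and 7.52, and 14.92 and 15.09 in the macrophage-poor pools, a difference of 0.29 ± 0.44. Comp (-1.37 ± 0.27), Sox5 (-1.42 ± 0.29) and Chad (-2.19 ± 0.54), which tendon and periosteum may also use, were called lower, and Col2a1 was called higher at 2.32 ± 0.69. The other detected probes of Sox5 differed by -0.68 and -0.09. Of 8 housekeeping, 15 ribosomal protein and 20 oxidative phosphorylation genes, none was called, beside those same shares of all genes. Their medians were 0.02, 0.16 and 0.21.

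The design allowed a test of the groups themselves, with the class of pool held in the model. The 3 macrophage-rich pools fall 1 to a group, so the estimated differences between groups are the same with and without that term and only the spread differs. The median residual SD over genes was 0.381 with the term and 0.466 without it. The term was chosen on these arrays, so the p-values take it as given.

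For day 6 against unfractured, 556 genes (5.52%) rose and 385 (3.82%) fell with the term (limma, Benjamini-Hochberg adjusted), whereas 221 (2.19%) rose and 63 (0.625%) fell without it. With median scaling 1113 rose and 70 fell, and the median of all genes was 0.72, against 0.04 with quantile normalisation. All 284 genes that passed without the term also passed with it. Of the lists, smooth muscle gained the most calls, as 8 of 13 genes fell with the term and 0 without it, where 7 had an unadjusted p under 0.05. With median scaling 3 fell. Myh11 fell by 3.89 ± 0.63 (limma adjusted p = 0.0123 with the term, 0.128 without), and Des fell by 2.57 ± 0.27 (limma adjusted p = 0.0022 with the term, 0.222 without).

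Collagen and matrix genes rose in 10 of 24 with the term and 6 of 24 without (18 with median scaling), and endothelial genes fell in 4 of 17 with it and 1 of 17 without (2 with median scaling). Of 14 cartilage genes, 12 rose with the term and 11 without. Acan, undetected in all 3 unfractured pools, rose at least 449-fold (limma adjusted p = 8.22e-05 with the term, 4.21e-05 without). Of the 26 macrophage genes 2 rose with the term, beside 556 of all 10073 genes (5.52%), and 0 rose without it. With median scaling 4 of the 26 rose, beside 1113 of all genes. The 2 were C1qc, by 1.62 ± 0.41 (limma adjusted p = 0.0476), and Ms4a7, by 2.31 ± 0.57 (limma adjusted p = 0.0428). C1qc is the partner chain of C1qb, which set the term. Leaving out 1 pool moved the count of all genes that passed to between 129 (without day 6 replicate 3) and 2907 (without unfractured replicate 3), and it was 13 in male pools alone.

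For day 2 against unfractured, 26 genes (0.258%) rose and 39 (0.387%) fell with the term, and 0 (0%) passed in either direction without it, where 1625 had an unadjusted p under 0.05 in limma. With the term and median scaling 1641 rose and 20 fell, and the median of all genes was 0.83, against 0.06. With the term, Acan rose at least 6.29-fold (limma adjusted p = 0.0414). The interferon gene Mx2 fell by 2.17 ± 0.36 (limma adjusted p = 0.0481), which with median scaling was -1.18 (limma adjusted p = 0.0531). With sex in the model the count was 0 again, where 2266 had an unadjusted p under 0.05. For day 6 against day 2, 258 genes (2.56%) rose and 49 (0.486%) fell with the term, and 132 (1.31%) rose and 11 (0.109%) fell without it. The counts for day 2 against unfractured rested on single pools, with 2326 without unfractured replicate 3, 313 without day 6 replicate 1, 1 without day 2 replicate 3 and 0 without any of the other 6 pools. For day 6 against day 2 they ran between 68 (without day 6 replicate 3) and 706 (without unfractured replicate 3).

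In the 6 macrophage-poor pools alone, 1652 genes (16.4%) rose and 1416 (14.1%) fell at day 6 against unfractured, 1089 (10.8%) rose and 1006 (9.99%) fell at day 2 against unfractured, and 246 (2.44%) rose and 105 (1.04%) fell at day 6 against day 2 (limma). The median residual SD was 0.253 in these pools, with 3 residual degrees of freedom. These pools were chosen by C1qb on the same arrays, which left out the macrophage-rich pool of each group. The counts and p-values therefore take that choice as given. In these pools Acta2 fell by 0.83 at day 6 against unfractured (limma adjusted p = 0.0212).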

How the data were processed

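RNA from 9 pools of sorted cells was copied into biotin-tagged RNA, and each pool was read on 1 Illumina array. The deposited intensity values are non-normalised bead summaries on a linear scale, exported with GenomeStudio per the submitters' processing notes, version not given in the sources used here. The deposited detection p-value of each probe comes in steps of 1 in 798. A deposited quantile-normalised table of intensities was used for the C1qb rule and as an alternative.

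Intensities were corrected by normexp with detection p-values (offset 16), quantile-normalised and log2-transformed (neqc, limma 3.58.1, R 4.3.3). Of 25697 probes 23978 had 1 gene symbol and 1719 none. Probes with detection p under 0.05 on at least 3 of 9 arrays were kept (14519), and the probe of highest mean stood for each gene (10073 genes). Another detected probe existed for 253 of the called genes, and in 33 of these some probe had the opposite sign. The number of arrays limits the precision, and scan dates and slides are not used here.

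The model held group and the macrophage-rich term (limma, 5 residual degrees of freedom), tested two-sided for group contrasts only, and the scripts were tested on simulated data. A bound for a gene undetected in a whole class or group sets the mean of the other against, on each array of the dim side, the higher of its own signal and the lowest signal of any detected probe on that array (5.51 to 6.66 log2 units). The genes named are the 15 highest and 15 lowest differences among those called, up to 4 genes of each of 37 lists by size, and a fixed panel; other list members are named to show those not called or of a named role, and were chosen after their values were seen. Pools, members and lists were chosen with earlier results of these data known. Nothing in the labels says that pools of 1 replicate number are linked. Deviations from group means of same-numbered pools correlated at -0.31 to 0.40 between unfractured and day 2, at -0.28 to 0.26 between unfractured and day 6, and at 0.51 to 0.63 between day 2 and day 6. The last pair of groups gave the highest values, but there pools of number 1 are both macrophage-rich. Deviations within a group cancel out, so this shared class also moves the other pools of both groups together. The values therefore cannot show whether pools are paired. Alternatives covered the background correction, the scaling, the filter, the probe, sex, the replicate block and each pool left out.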

Additional observations from a re-analysis of the deposited data

Results flagged for a closer look

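Unfractured replicate 1, a macrophage-poor pool, stood apart from the other macrophage-poor pools in 3 gene lists by Dixon's test, which chance passes in about 1 of 20 sets. There were 37 lists, so a few such passes can arise by chance. The macrophage-poor pools also span 3 groups, which the test ignores. Its neutrophil mean was 11.48 log2 units, against 8.94 to 9.56 in the other 5. Its mean of 4 T and NK cell genes was 8.38, against 6.80 to 7.21, and its platelet mean was 5.08, against 6.18 to 6.82.

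In several lists the macrophage-rich pool lay above both others of its group in 1 group and below both in another. These differences between groups were not tested. The list means, macrophage-rich minus macrophage-poor, were -1.23 (unfractured), 0.72 (day 2) and 1.74 (day 6) for endothelial genes, -0.81, 0.64 and 2.52 for erythroid genes, -0.73, 1.72 and 0.32 for T and NK cell genes, and -0.28, 0.25 and -1.07 for cartilage genes in the same order. Collagen and matrix genes gave 0.22, -0.69 and -0.13, and secretory pathway genes 0.38, -0.16 and 0.42. Progenitor and niche genes gave -0.0066 in the unfractured group and 0.88 at day 6. Ribosomal protein genes gave 0.36 (unfractured) and -0.13 (day 2).

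Of 858 detected probes with no gene symbol, which enter no comparison above, 48 (5.59%) met the limits for higher and 37 (4.31%) those for lower, beside 5.58% and 6.03% of named genes.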

How the results depend on the processing

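All 562 genes called higher and all 607 called lower kept their sign in every other setting in which single genes were compared. No background correction gave 299 higher and 233 lower, and the deposited table's values gave 286 and 230. Median scaling gave 36.4% higher among all calls, against 48.1%. Leaving out 1 pool gave 560 to 770 higher and 619 to 984 lower, with the most lower without day 6 replicate 1, where only 2 groups define a call.

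Genes passing for day 2 against unfractured were 163 with no background correction, 193 in the deposited table, 1661 with median scaling (1641 risen), 32 over all probes, 0 with sex in the model, 0 in male pools only (815 at an unadjusted p under 0.05), 0 with no macrophage-rich term, 0 with the macrophage list mean as covariate (1917 unadjusted) and 2095 in macrophage-poor pools only. Leaving out 1 pool gave 0 to 2326, the most without unfractured replicate 3, and 0 without each of 6 pools, where 1883 to 2337 had an unadjusted p under 0.05. For day 6 against unfractured they were 563 with sex, 13 in male pools, 284 with no term and 3068 in macrophage-poor pools, and 129 (without day 6 replicate 3) to 2907 (without unfractured replicate 3) with 1 pool left out. For day 6 against day 2 they were 461 with no background correction, 484 in the deposited table, 162 with median scaling, 178 with sex, 7 in male pools and 143 with no term, and 68 to 706 with 1 pool left out. The causes were not tested.

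With replicate number as a block, 1164 genes passed comparing day 2 with unfractured, 1945 comparing day 6 with unfractured and 431 comparing both fracture times; 605 were called higher and 696 lower. Of single genes and list medians, 2636 and 498 values moved by less than the spread between replicates, 164 and 94 by more, and none called turned its sign. Signal near background limits the size of differences for dim probes.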

Other observations

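Besides the C1q chains, 6 complement genes were looked at. They were chosen after their values were seen, so they stand for no wider set. C1s1, a protease that C1q carries, had 7.00, 5.57 and 6.22 in the macrophage-rich pools (unfractured, day 2, day 6), against 9.54 and 9.18, 7.54 and 7.20, and 7.97 and 7.77 in the macrophage-poor pools, a difference of -1.94 ± 0.21. The neighbouring copy C1s2 differed by -1.89 ± 0.46, and the 2 probes may share signal. C2, the next protease of the cascade, differed by -1.68 ± 0.35, C4b by -1.58 ± 0.26, the alternative pathway protease Cfb by -1.93 ± 0.40 and the inhibitor Serping1 by -1.22 ± 0.20. All 6 were called lower.

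Iron and lipid handling genes of macrophages were uneven. Hmox1, which breaks down haem, was called higher at 2.08 ± 0.38, as were Spic, a factor of iron-recycling macrophages, at 4.12 ± 0.23 and Apoe, a lipid carrier, at 3.08 ± 0.59. The other detected probe of Spic differed by 1.66. The iron exporter Slc40a1 had 12.48, 12.78 and 12.54 in the macrophage-rich pools, against 8.65 and 8.65, 8.51 and 8.43, and 12.86 and 13.05 in the macrophage-poor pools. It was thus not called, since macrophage-poor pools were as high at day 6.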
